A study of Mus musculus with 12 samples.

Results

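Lysosomal hydrolases and subunits of the vacuolar proton pump (V-ATPase) were followed in CD4+ T cells of mice that carry the Anaef allele of Rasgrp1 and of wild-type mice. A list of 36 lysosomal genes was matched by Ensembl mouse identifier to a table of 45669 rows, and 35 of them had a row of their own. The 35 genes were 12 hydrolases (7 cathepsins and 5 glycosidases), 8 other lysosomal proteins (6 of the membrane and 2 of the lumen) and 15 V-ATPase genes (8 subunits of V1, 5 of V0 and 2 accessory proteins). Atp6v0c, which encodes the ring subunit c of V0, was counted only in a row that joined 3 identifiers, and 93.1% of the stretches of 30 bases of its coding sequence also occur in 2 pseudogenes. No value was used for it, so every sum over the pump leaves out the ring subunit.

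The libraries came from lymph node CD4+ T cells of C57BL6 mice that were 12 weeks old and either homozygous for Anaef or wild type (WT) at Rasgrp1, a gene for a Ras exchange factor that acts below the T cell receptor. Cells were isolated by removing other cells with magnetic beads, and no group received a treatment before harvest. Total RNA was sequenced in 4 Anaef and 4 WT samples, each from a small portion of the cells and captured through its poly(A) tails. Ribosome-protected fragments (RPF), the mRNA stretches that translating ribosomes shield from nuclease, were sequenced in 2 Anaef and 2 WT pools of 2 samples each, after 1 minute of cycloheximide and digestion with micrococcal nuclease. The labels do not name the animals behind each sample or pool, and each p-value below reflects the variation among libraries, which may be technical. The allele is homozygous in the mouse, and a change in the T cells themselves and a change in which cells were isolated cannot be told apart in such bulk samples, nor can fewer cells of a type and less RNA per cell.

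Lysosomes digest proteins, sugars and lipids with hydrolases that work best in acid. Most of these enzymes are made on the rough endoplasmic reticulum and carried to the lysosome by mannose 6-phosphate receptors. The acid is supplied by the V-ATPase, in which the cytosolic V1 sector hydrolyses ATP and turns a rotor of the membrane-embedded V0 sector to pump protons. In V1, subunits A and B bind the nucleotide, D and F form the central stalk, E and G the outer stalks, and C and H hold the sectors together and regulate them. In T cells, lysosomes take up receptors removed from the surface and are a platform on which mTORC1 senses amino acids. Many lysosomal genes of both kinds are known targets of TFEB and TFE3, which bind a palindromic motif around CACGTG, the core of the CLEAR element.

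That core stood in the promoter windows of 12 of the 28 members that could be matched to RefSeq promoters (42.9%), against 2187 of 27025 genes with a window (8.09%). A window ran from 250 bases before to 50 bases after the annotated start, on build GRCm38.p6, and the core reads the same on both strands. It occurred in 6 of 11 hydrolases and in 4 of 10 V-ATPase genes. The longer palindrome TCACGTGA, which contains the core, occurred in 7 members (25%) and in 304 genes overall (1.12%). A match is a run of letters and not evidence that a factor binds there. Since many lysosomal genes are already known targets of factors that bind this core, its higher share among members is no independent result. The 27025 genes were not filtered by expression. Stretches upstream of the start are printed for members to which the results below return, from RefSeq, 5′ to 3′ on the strand of the gene, with the core in capitals.
Gla, chrX:134601174-134601252, minus strand: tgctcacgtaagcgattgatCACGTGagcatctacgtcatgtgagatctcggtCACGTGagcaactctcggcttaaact
Ctsl, chr13:64370731-64370770, minus strand: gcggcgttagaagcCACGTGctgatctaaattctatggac
Ctsd, chr7:142387900-142388077, minus strand: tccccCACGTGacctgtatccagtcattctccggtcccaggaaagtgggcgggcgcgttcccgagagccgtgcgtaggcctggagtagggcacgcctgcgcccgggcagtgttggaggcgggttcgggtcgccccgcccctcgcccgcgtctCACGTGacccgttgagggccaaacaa
Lamp1, chr8:13159080-13159160, plus strand: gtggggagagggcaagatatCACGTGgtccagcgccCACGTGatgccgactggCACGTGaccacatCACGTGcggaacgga
Atp6v1a, chr16:44139365-44139410, minus strand: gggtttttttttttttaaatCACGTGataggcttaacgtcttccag
Atp6v0b, chr4:117887330-117887385, minus strand: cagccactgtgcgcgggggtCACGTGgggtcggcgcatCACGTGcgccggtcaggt
The 4 cores of Lamp1 lay within 61 bases of its start, while those of Gla began 227 and 194 bases before its start. The core occurred in hydrolases, membrane proteins and both sectors of the pump. The median log2 fold change, Anaef over WT, was 0.08 in the 12 members with it and 0.13 in the 16 without it in total RNA, and -0.06 with it and -0.10 without it in RPF.

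Libraries held 18580747 to 39467754 counts in Anaef total RNA, 15326842 to 40046317 in WT total RNA, 2868943 to 3464868 in Anaef RPF and 4044330 to 7009342 in WT RPF. The 35 genes took 0.194 to 0.301% of counts in Anaef total RNA, 0.175 to 0.269% in WT total RNA, 0.519 to 0.558% in Anaef RPF and 0.502 to 0.618% in WT RPF. The T cell label was borne out by 10 CD4 T cell markers, which summed to 3224 to 5032 CPM (counts scaled to the size of the library) in Anaef total RNA and 2934 to 3266 CPM in WT total RNA. Markers of other cells were also present, and those of plasma cells were lower in every Anaef library than in any WT library of the same assay. The 12 B cell markers summed to 28.6 to 94.0 CPM in Anaef and 75.2 to 146 CPM in WT total RNA, and to 119.3 to 186.7 CPM in Anaef and 186.7 to 286 CPM in WT RPF, with Cd22 at 0 in all 4 RPF libraries. The 10 plasma cell markers, 3 of them immunoglobulin genes, summed to 422.9 to 830.8 CPM in Anaef and 1334 to 6151 CPM in WT total RNA, and to 2975 to 8880 CPM in Anaef and 13160 to 33510 CPM in WT RPF. The 14 myeloid and dendritic markers summed to 16.8 to 31.6 CPM in Anaef and 29.1 to 41.9 CPM in WT total RNA and to 100.4 to 123.2 CPM in Anaef and 95.1 to 104.4 CPM in WT RPF, with Cd14 at 0 in all 12 libraries.

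Among hydrolases the transcript of Ctsd, an aspartic protease, was the most abundant per length in total RNA. Ctsd had 407, 372, 385 and 406 CPM in Anaef total RNA, against 443, 378, 317 and 351 CPM in WT total RNA. In RPF it had 241 and 228 CPM in Anaef and 230 and 301 CPM in WT. The genotypes overlapped in both assays, and Ctsd alone made up 56.2% of the hydrolase sum in Anaef and 55.9% in WT total RNA. Its level is uncertain because 63.5% of its coding stretches of 30 bases also belong to Gm49369, an overlapping gene on the same strand. Next came Ctss, a cysteine protease known for trimming the invariant chain in antigen-presenting cells. Ctss had 78.0, 74.0, 104 and 118 CPM in Anaef total RNA, against 74.9, 101, 65.9 and 90.5 CPM in WT total RNA. In RPF Ctss led the hydrolases, with 332 and 306 CPM in Anaef and 340 and 337 CPM in WT. Both Anaef pools lay below both WT pools, the upper of them only just. The serine carboxypeptidase gene Ctsa had 73.9, 67.8, 70.0 and 71.9 CPM in Anaef total RNA, against 68.0, 69.2, 62.4 and 57.7 CPM in WT total RNA, and its groups overlapped.

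Of the remaining lysosomal proteins Laptm5, a membrane protein of blood cells that promotes loss of the T cell receptor, exceeded every other member in both assays. Laptm5 had 1090, 764, 1210 and 987 CPM in Anaef total RNA, against 965, 879, 764 and 1020 CPM in WT total RNA. Its RPF were 1360 and 1260 CPM in Anaef and 1050 and 1540 CPM in WT, so that the WT pools enclosed the Anaef pools. Psap encodes the precursor of the saposins, which help hydrolases reach their lipid substrates. Psap had 56.4, 67.2, 64.3 and 70.5 CPM in Anaef total RNA and 60.0, 63.1, 81.1 and 60.6 CPM in WT total RNA. In RPF it came second to Laptm5 in CPM, at 914 and 878 CPM in Anaef and 896 and 1050 CPM in WT. Per kilobase of coding length in RPF, Laptm5 stood at 1385 ± 74.1 CPM in Anaef and 1373 ± 367 CPM in WT (SD, n = 2 each). Npc2, the soluble cholesterol carrier, followed at 639 ± 14.7 CPM per kilobase in Anaef and 709 ± 39.2 in WT, ahead of Psap at 522 ± 15.1 in Anaef and 567 ± 64.2 in WT. Laptm5 lay above Npc2 in every pool, and Npc2 above Psap in every pool.

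**Figure D1:**
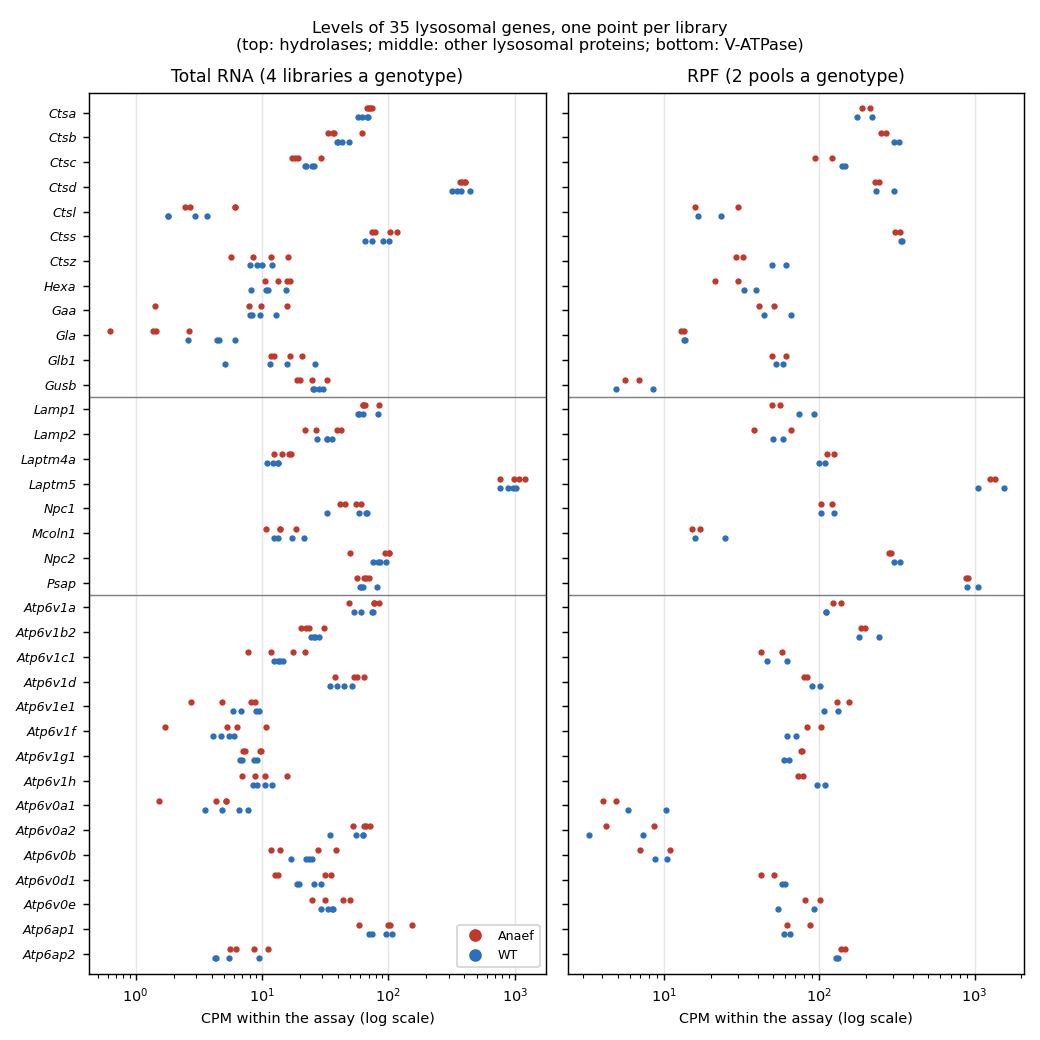
Levels of the 35 lysosomal genes in CPM on a log scale, with genes down the page in 3 blocks (hydrolases, other lysosomal proteins, V-ATPase) and 1 point per library, Anaef above WT. Laptm5 lies farthest right in both assays, and the points of the genotypes overlap for all 35 genes in total RNA.

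In total RNA the pump genes most abundant per length were Atp6ap1, Atp6v0d1 and Atp6v1a. Atp6v0d1, which joins the V0 rotor to the central stalk, had 12.7, 31.5, 35.5 and 13.5 CPM in Anaef total RNA, against 19.1, 25.8, 19.8 and 29.2 CPM in WT total RNA, and 51.0 and 42.2 CPM in Anaef RPF and 59.9 and 57.8 CPM in WT RPF. Its Anaef libraries enclosed the WT libraries in total RNA. In RPF, V1 subunits were dense while the V0 subunits a and b were sparse. Per kilobase of coding length, the outer-stalk subunits Atp6v1g1 and Atp6v1e1 stood at 217 ± 2.36 and 210 ± 26.6 CPM in Anaef RPF and at 173 ± 8.96 and 175 ± 25.1 CPM in WT RPF (SD, n = 2 each). These neighbours did not differ beyond their spread. The nucleotide-binding subunits Atp6v1b2 and Atp6v1a stood at 124 ± 4.75 and 70.2 ± 6.23 CPM per kilobase in Anaef and at 138 ± 28.1 and 59.7 ± 0.574 in WT. Subunit B thus lay above subunit A in every pool. The lowest were the isoforms of the membrane subunit a. Atp6v0a1 stood at 1.74 ± 0.241 CPM per kilobase in Anaef and 3.17 ± 1.25 in WT, and Atp6v0a2 at 2.34 ± 1.14 in Anaef and 1.93 ± 1.05 in WT. Coding length is the union over annotated transcripts, which makes genes with long minor isoforms look less dense, and 81.5% of the coding stretches of Atp6v1g1 and 44.6% of those of Atp6v1f recur in other annotated genes.

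**Figure D2:**
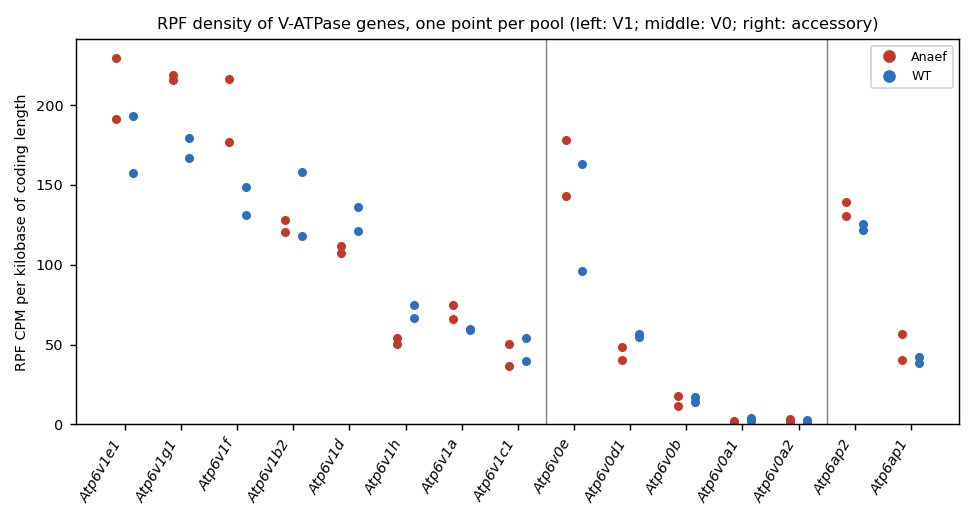
RPF of the 15 V-ATPase genes in CPM per kilobase of coding length, 1 point per pool, with Anaef left of WT for each gene and the V1, V0 and accessory genes in blocks ordered by the WT mean. Most V1 subunits and Atp6v0e lie above 50 in most pools, whereas Atp6v0a1 and Atp6v0a2 lie near 0.

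The first question of the design was whether Anaef cells hold other amounts of these transcripts. In total RNA no lysosomal gene passed the test, with 4 of 17876 rows called at an adjusted p under 0.05 by edgeR's quasi-likelihood test (0.0224%). At an unadjusted p under 0.05 there were 1004 rows (5.62%) and 1 of the 35 genes, Gla. Gla encodes alpha-galactosidase A, which removes terminal galactose from glycolipids. It had 2.64, 1.45, 1.37 and 0.627 CPM in Anaef total RNA, against 4.56, 6.16, 2.61 and 4.41 CPM in WT total RNA. A single Anaef library lay among the WT values, just above the lowest of them. The log2 fold change, Anaef over WT, was -1.56 (SE 0.49, edgeR quasi-likelihood adjusted p = 0.74). These are counts of 22 to 60 in Anaef and 33 to 283 in WT, and in RPF Gla had 13.5 and 12.9 CPM in Anaef and 13.7 and 13.4 CPM in WT. The RPF of the genotypes overlapped.

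The next smallest p-values in total RNA belonged to a protease and to a stalk subunit. Ctsl, a cysteine protease, had 2.48, 2.69, 6.12 and 6.07 CPM in Anaef, against 2.96, 3.68, 1.82 and 1.80 CPM in WT (log2 fold change 0.75, SE 0.45, adjusted p = 0.92 by edgeR). Of its Anaef libraries 2 lay within the WT range and 2 above it. Atp6v1d, of the central stalk, had 56.6, 63.8, 37.6 and 53.5 CPM in Anaef and 34.6, 51.3, 44.9 and 39.2 CPM in WT (log2 0.31, SE 0.20, adjusted p = 0.93). No member had all Anaef libraries on one side of all WT libraries, against 1.58% of rows with every Anaef library higher and 2.01% with every Anaef library lower. The median log2 fold change was 0.08 for hydrolases, 0.02 for other lysosomal proteins and 0.12 for V-ATPase genes, beside 0.01 over all rows tested.

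RPF gave no call either, and more hydrolases lay below WT than above it. Of 9710 rows 0 were called (0%), with 1151 (11.9%) at an unadjusted p under 0.05 by edgeR and 197 called by DESeq2. Among the 35 genes 5 had an unadjusted p under 0.05, namely Ctsz, Lamp1, Atp6v1h, Atp6v1f and Ctsc. The log2 fold change was below 0 in 10 of 12 hydrolases, in 6 of 8 other lysosomal proteins and in 7 of 15 V-ATPase genes. The medians were -0.15, -0.09 and 0.12, beside 0.01 over all rows tested. All 5 glycosidases were below 0, within a range of -0.48 to -0.01.

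Ctsz encodes a carboxypeptidase, also called cathepsin X or Z. It had 29.0 and 32.1 CPM in Anaef RPF, against 61.0 and 49.5 CPM in WT RPF. Both Anaef pools were lower than both WT pools, while its total RNA overlapped, at 5.70 to 16 CPM in Anaef and 8.01 to 12.1 CPM in WT. The log2 fold change of its RPF was -0.86 (SE 0.19, adjusted p = 0.34 by edgeR). DESeq2 called it at an adjusted p of 0.024 and edgeR without a filter on low counts at 0.00594, while over all settings tried its adjusted p ran up to 1. Lamp1 encodes a heavily glycosylated protein that lines the lysosomal membrane. It had 55.6 and 49.2 CPM in Anaef RPF and 74.4 and 91.8 CPM in WT RPF (log2 fold change -0.66, SE 0.19, adjusted p = 0.34 by edgeR). Its total RNA was 84.3, 63.4, 62.8 and 66.0 CPM in Anaef and 62.6, 58.7, 82.8 and 57.2 CPM in WT, and these overlapped.

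Ctsc, the dipeptidyl peptidase that activates serine proteases of cytotoxic granules, had 93.2 and 120 CPM in Anaef RPF, against 140 and 147 CPM in WT RPF (log2 fold change -0.43, SE 0.17, adjusted p = 0.41 by edgeR). In total RNA it had 29.1, 19.3, 17.4 and 18.4 CPM in Anaef and 25.0, 22.1, 22.5 and 26.0 CPM in WT. Of the V1 subunits, Atp6v1h and Atp6v1f lay on opposite sides of WT. Atp6v1h had 78.6 and 72.6 CPM in Anaef RPF and 108 and 96.6 CPM in WT RPF (log2 -0.44, SE 0.16, adjusted p = 0.38). Atp6v1f had 102 and 83.4 CPM in Anaef RPF and 61.9 and 70.2 CPM in WT RPF (log2 0.49, SE 0.18, adjusted p = 0.38). In total RNA Atp6v1h had 6.97, 8.88, 10.5 and 15.8 CPM in Anaef and 10.5, 12.0, 8.46 and 9.09 CPM in WT, and Atp6v1f had 10.7, 1.72, 6.30 and 5.25 CPM in Anaef and 4.10, 4.75, 6.01 and 5.45 CPM in WT. For both subunits the genotypes overlapped there.

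The pools of the genotypes did not overlap in RPF for 5 genes that were higher and 11 that were lower in Anaef, against 22.3% of rows higher and 22.5% lower. As shares of the 35 genes, the higher ones lie below that background and the lower ones above it. The lower genes were the hydrolases Ctsb, Ctsc, Ctss, Ctsz and Hexa, with Lamp1, Npc2, Atp6v1d, Atp6v1h, Atp6v0a1 and Atp6v0d1. The higher genes were Laptm4a, Atp6v1a, Atp6v1f, Atp6v1g1 and Atp6ap2, and no hydrolase was among them. The summed plasma cell markers given above were lower in Anaef RPF as well, and those of B cells at or below WT. The myeloid sum was not lower, and Cst3 alone made up much of it. Cst3 had 78.3 and 82.3 CPM in Anaef RPF and 43.85 and 67.7 CPM in WT RPF. Of the 3 myeloid and dendritic markers tested in RPF, 2 were below 0 (median log2 fold change -0.11). In total RNA 7 of the 9 tested were below 0 (median -0.94). The 9 markers of CD8 T cells and NK cells summed to 128.2 and 95.95 CPM in Anaef RPF and 126.4 and 147.4 CPM in WT RPF, which overlap, and 5 of the 6 tested were below 0, with a median log2 fold change of -0.19. The part of any of these cell types in the RPF values of the lysosomal genes was not tested.

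**Figure D3:**
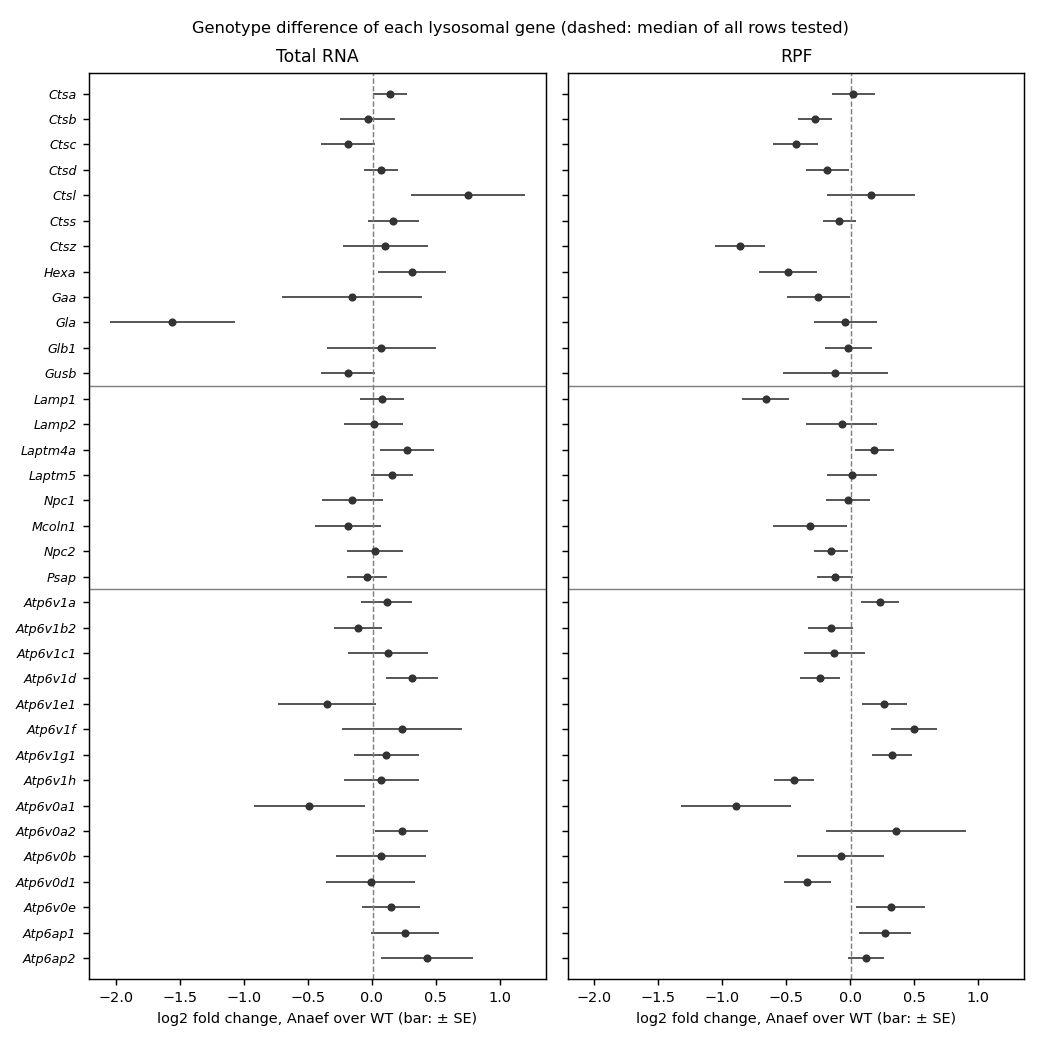
Log2 fold change of each lysosomal gene, Anaef over WT, with its SE, in total RNA (left) and RPF (right), genes down the page in the blocks hydrolases, other lysosomal proteins and V-ATPase. The dashed line is the median of all rows tested, and in RPF 10 of 12 hydrolases lie left of 0.

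Whether RPF moved beyond total RNA was asked in a single model over the 12 libraries. No row of 19031 was called (0%), with 636 rows (3.34%) and 2 members at an unadjusted p under 0.05, and 10 rows called by DESeq2. The members were Lamp1, with a difference of log2 fold changes of -0.75 (SE 0.30, adjusted p = 1 by edgeR), and Gla, with 1.51 (SE 0.69, adjusted p = 1). For Lamp1 the RPF lay lower in Anaef, and for Gla it was the total RNA that did. Ctsz followed at -0.98 (SE 0.50, adjusted p = 1). All 7 cathepsins were below 0, with a median of -0.27, while the 8 V1 subunits had a median of 0.02 and the rows tested a median of 0.01. That sign was not limited to cathepsins, since all 10 CD4 T cell markers were below 0 (median -0.21), as were 27 of 37 other lysosomal hydrolases (median -0.37).

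Hydrolases were weighed against the pump in each library by the ratio of their summed counts, 12 genes over 15. The ratio was 1.68, 1.29, 1.66 and 1.51 in Anaef total RNA, against 1.83, 1.60, 1.47 and 1.59 in WT total RNA. In RPF it was 1.07 and 1.11 in Anaef and 1.26 and 1.31 in WT. The genotypes overlapped in total RNA (1.53 ± 0.178 in Anaef and 1.62 ± 0.153 in WT, SD, n = 4 each) and did not overlap in RPF (1.09 ± 0.0315 in Anaef and 1.28 ± 0.0347 in WT, SD, n = 2 each). No p is given for this ratio, since its members were chosen with results known. The RPF difference of -0.24 on the log2 scale, Anaef minus WT, became -0.33 per kilobase and -0.22 without Ctsd and Atp6v1a. With each pool left out it ran between -0.27 and -0.21, where it had to stay below 0 because the pools did not overlap. Such a separation of pools was common among single rows, at 22.3% higher and 22.5% lower in Anaef. In RPF the hydrolases summed to 1318 ± 33.9 CPM in Anaef and 1500 ± 77.3 CPM in WT, and the pump to 1213 ± 66.2 CPM in Anaef and 1167 ± 28.6 CPM in WT (SD, n = 2 each).

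The same ratio was lower in RPF than in total RNA, an order that did not hold once Ctsd and Atp6v1a were left out together. Leaving out each alone was not tried. Ctsd had a log2 ratio of RPF to total RNA of -1.49 in Anaef and -1.21 in WT. For Atp6v1a it was 0.11 in Anaef and 0.02 in WT. The log2 difference, RPF minus total RNA, was -0.49 in Anaef and -0.33 in WT. Without Ctsd and Atp6v1a, the hydrolase and the pump gene with the highest mean share of counts over the 12 libraries, it was 0.34 in Anaef and 0.46 in WT. The order of the assays thus turned when the single most abundant hydrolase, whose reads cannot be told from those of Gm49369 over much of its coding sequence, was left out together with Atp6v1a.

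**Figure D4:**
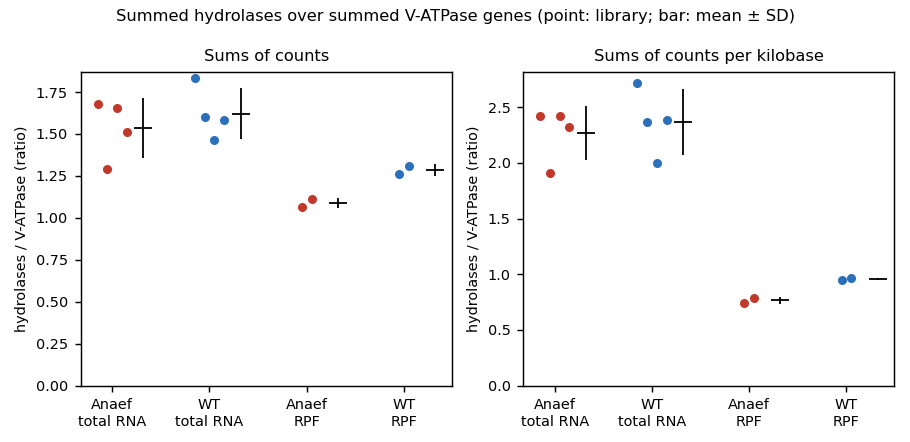
Ratio of summed hydrolases to summed V-ATPase genes in each library, from counts (left) and from counts per kilobase (right), with group means and SDs as bars beside the points. Anaef RPF pools lie at 1.07 and 1.11 and WT RPF pools at 1.26 and 1.31 on the left, and the means of both RPF groups lie below those of both total RNA groups, although WT RPF and Anaef total RNA points overlap.

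RPF were then set against total RNA within each genotype. More of the 35 genes were called higher in RPF than lower, with large differences among them. Lysosomal genes outside the 35, listed by role further below, had fewer higher than lower calls when pooled over roles. Of those tested, 16 were called higher and 27 lower in Anaef, and 26 higher and 29 lower in WT. Of 36 other hydrolases, 9 were called higher and 9 lower in Anaef, and 13 higher and 10 lower in WT. Their median log2 ratios, -0.14 in Anaef and 0.26 in WT, lay above the protein-coding medians given below. Of other membrane proteins, 2 of 21 were called higher and 8 lower in Anaef, and 4 of 20 higher and 8 lower in WT. Other pump genes and regulators also had more lower than higher calls in both genotypes, and sorting genes had 3 of each. Of the 35 genes, 16 were called higher and 6 lower in Anaef, against 16.4% of 18032 rows higher and 50.8% lower. In WT 19 were called higher and 5 lower, against 19.6% of 17775 rows higher and 54.4% lower. Those rows include genes that are not protein-coding, and among protein-coding rows 21.6% were higher and 36.3% lower in Anaef and 26.4% were higher and 39.4% lower in WT. The median log2 ratio of the members was 0.78 in Anaef and 0.94 in WT, beside -0.48 and -0.36 over protein-coding rows. Since RPF counts were deposited as masked and total RNA counts were not so named, and since the assays differ in library preparation, a ratio compares genes within the table and is not a number of ribosomes per transcript. CPM were scaled within each assay, so the CPM of RPF and total RNA printed below do not yield these ratios by division.

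The accessory protein Atp6ap2, several V1 subunits and Psap stood highest. Atp6ap2, known also as the prorenin receptor, had 146 and 137 CPM in Anaef RPF and 132 and 128 CPM in WT RPF. Its total RNA was 6.29, 11.1, 5.64 and 8.70 CPM in Anaef and 5.54, 4.29, 9.41 and 4.37 CPM in WT. The log2 ratio of RPF to total RNA was 3.41 (SE 0.30) in Anaef and 3.76 (SE 0.34) in WT, with adjusted p of 3.83e-05 and 3.92e-05 by edgeR, although 19.5% of its coding stretches recur in Gm36448. Atp6v1e1, of the outer stalk, had 156 and 130 CPM in Anaef RPF and 131 and 107 CPM in WT RPF. Its total RNA was low, at 8.82, 4.85, 8.13 and 2.74 CPM in Anaef and 6.85, 5.94, 9.57 and 8.93 CPM in WT. The log2 ratio was 3.80 (SE 0.43) in Anaef and 3.22 (SE 0.25) in WT.

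Most of V1 shared this direction. Atp6v1b2, the nucleotide-binding subunit B, had 196 and 185 CPM in Anaef RPF and 181 and 242 CPM in WT RPF, and 30.8, 20.4, 22.4 and 23.6 CPM in Anaef and 28.3, 26.2, 24.3 and 26.0 CPM in WT total RNA. Its log2 ratio was 2.22 in Anaef and 2.30 in WT. Atp6v1g1 had 76.3 and 77.5 CPM in Anaef RPF and 63.5 and 59.0 CPM in WT RPF, and 7.13, 7.40, 9.60 and 9.89 CPM in Anaef and 8.69, 9.08, 6.72 and 6.93 CPM in WT total RNA. Its log2 ratio was 2.42 in Anaef and 2.24 in WT. For Atp6v1f the ratios were 3.21 in Anaef and 2.99 in WT, and for Atp6v1h they were 2.09 and 2.64. In all, 5 of 8 V1 subunits were called higher in Anaef and 6 of 8 in WT, with Atp6v1c1 the subunit called in WT alone, which is no test that the genotypes differ in it. Atp6v1a, the catalytic subunit, was called in neither genotype. It had 76.6, 84.5, 48.6 and 77.3 CPM in Anaef and 75.9, 61.4, 53.7 and 73.8 CPM in WT total RNA, and 122 and 138 CPM in Anaef and 110 and 111 CPM in WT RPF.

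Of V0, subunits a2 and b lay on the other side. Atp6v0a2, an isoform of the membrane subunit a, had 8.60 and 4.19 CPM in Anaef RPF and 3.25 and 7.28 CPM in WT RPF. In total RNA it had 52.6, 64.3, 71.3 and 66.5 CPM in Anaef and 55.2, 63.3, 34.8 and 63.0 CPM in WT. The log2 ratio was -4.04 (SE 0.36) in Anaef and -4.12 (SE 0.44) in WT, the lowest of the 35 genes in both. Atp6v0b, a further proteolipid of the ring, had 10.9 and 6.98 CPM in Anaef RPF and 8.71 and 10.4 CPM in WT RPF, and 27.6, 11.9, 14.0 and 38.7 CPM in Anaef and 23.7, 22.3, 24.7 and 17.0 CPM in WT total RNA. Its log2 ratio was -2.11 (SE 0.59) in Anaef and -1.92 (SE 0.26) in WT. Antisense genes overlap 9.86% of the exon bases of Atp6v0a2 and 11.8% of those of Atp6v0b, and without a stated strand setting their reads cannot be told apart. Of the V0 subunits measured, Atp6v0d1 was called higher in WT at 0.61 (SE 0.23), a call that was lost in 5 of the settings tried, and Atp6v0e was called in neither genotype. The accessory protein Atp6ap1 went against Atp6ap2. Atp6ap1 had 86.6 and 62.1 CPM in Anaef RPF and 59.2 and 64.3 CPM in WT RPF, and 58.7, 155, 100 and 103 CPM in Anaef and 70.5, 96.4, 107 and 74.4 CPM in WT total RNA, with a log2 ratio of -1.23 (SE 0.38) in Anaef and -1.22 (SE 0.23) in WT. The Anaef calls of Atp6ap1 and Atp6v0b were lost without pool 3B (adjusted p = 0.062 and 0.054 by edgeR) and without pool 4B (0.16 and 0.11). The medians were 2.15 for V1 and -0.62 for V0 in Anaef and 2.27 for V1 and -0.19 for V0 in WT.

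**Figure D5:**
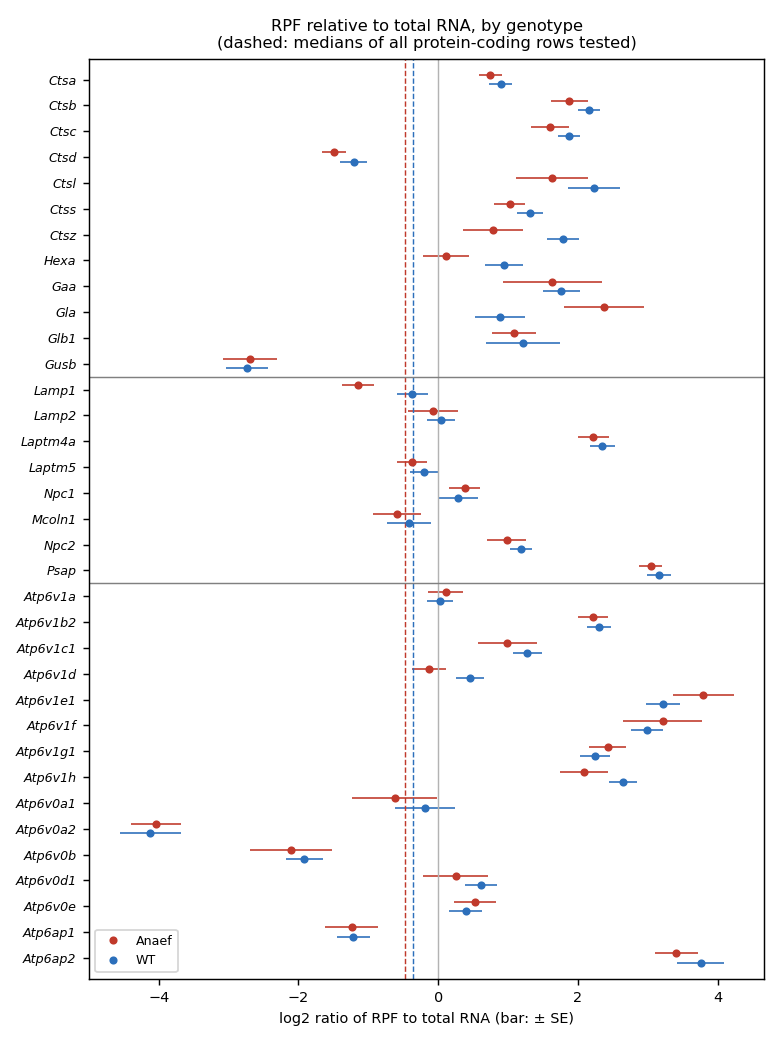
Log2 ratio of RPF to total RNA for each lysosomal gene with its SE, Anaef above WT, with dashed lines at the medians of protein-coding rows in each genotype. Atp6ap2 and Atp6v1e1 lie right of 3 and Atp6v0a2 lies near -4 in both genotypes.

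Most hydrolases were called higher in RPF, and Ctsd and Gusb were called lower in both genotypes. In Anaef 7 of 12 were called higher and 2 lower, and in WT 8 higher and 2 lower. In Anaef the call of Glb1 was lost without either pool, that of Ctsa without pool 3B and that of Ctsl without pool 4B, and in WT that of Hexa without pool 2B. Ctsb, a cysteine protease, had 268 and 251 CPM in Anaef RPF and 326 and 303 CPM in WT RPF, against 61.6, 33.1, 36.6 and 36.9 CPM in Anaef and 43.3, 49.0, 39.2 and 40.3 CPM in WT total RNA. Its log2 ratio was 1.88 (SE 0.26) in Anaef and 2.16 (SE 0.15) in WT. Ctsc stood at 1.59 (SE 0.27) in Anaef and 1.87 (SE 0.16) in WT. The cathepsins had a median of 1.02 in Anaef and 1.78 in WT, and the glycosidases one of 1.09 in Anaef and 0.94 in WT.

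Ctsd stood apart from the other cathepsins at -1.49 (SE 0.17) in Anaef and -1.21 (SE 0.19) in WT. Gusb encodes beta-glucuronidase, which cuts glycosaminoglycans. Gusb had 6.88 and 5.58 CPM in Anaef RPF and 8.42 and 4.86 CPM in WT RPF, against 19.0, 24.9, 19.9 and 32.5 CPM in Anaef and 25.7, 28.1, 30.4 and 25.4 CPM in WT total RNA. Its log2 ratio was -2.69 (SE 0.39) in Anaef and -2.74 (SE 0.30) in WT. No other annotated gene shares its exons or its stretches of 30 bases.

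Among the other lysosomal proteins Psap, Laptm4a and Npc2 were called higher in both genotypes. The Npc2 call in Anaef, at 0.98 (SE 0.28), was lost without pool 3B (adjusted p = 0.093 by edgeR) and without pool 4B (0.075), and its ratio was -0.29 once a trend with coding length was removed. Psap had a log2 ratio of 3.04 (SE 0.16) in Anaef and 3.16 (SE 0.18) in WT, and the smallest p of the members in both. Laptm4a, a small membrane protein of late endosomes and lysosomes, had 124 and 112 CPM in Anaef RPF and 98.8 and 109 CPM in WT RPF, against 12.4, 17.1, 16.5 and 14.3 CPM in Anaef and 12.2, 13.3, 13.4 and 10.9 CPM in WT total RNA. Its log2 ratio was 2.22 (SE 0.23) in Anaef and 2.34 (SE 0.18) in WT. Lamp1 was called lower in Anaef at -1.15 (SE 0.22) and was not called in WT at -0.37 (SE 0.22), and this difference is the -0.75 given above, which did not pass. Lamp2, Laptm5, Mcoln1 and Npc1 were called in neither genotype.

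The calls were the same in both genotypes for 27 of the 35 genes, with 14 higher, 5 lower and 8 called in neither. Across the 35 genes the log2 ratios of the genotypes went together (Pearson's r = 0.97, Spearman's rho = 0.95), as they did over 11599 protein-coding rows (r = 0.94, rho = 0.95), points that share their libraries within a genotype and the gene's sequence between them. Shorter coding sequences tended to have higher ratios among the members (rho = -0.31 in Anaef and -0.33 in WT), beside rho of -0.03 in Anaef and -0.03 in WT over protein-coding rows.

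Lysosomal genes outside the 35 were taken in lists by role (other hydrolases, other membrane proteins, enzyme sorting, other pump genes and regulators). In the genotype comparisons none was called in total RNA or in RPF. In total RNA the smallest p belonged to Laptm4b, a relative of Laptm4a, with a mean of 5.40 CPM in Anaef and 0.912 CPM in WT (log2 2.54, SE 0.48, adjusted p = 0.29 by edgeR), which DESeq2 called at an adjusted p of 0.000208. In RPF Laptm4b lay on the other side, with a mean of 2.88 CPM in Anaef and 4.76 CPM in WT (log2 -0.65, SE 0.53, adjusted p = 0.67 by edgeR), and RPF relative to total RNA gave -3.25 (SE 0.82, adjusted p = 1). Ccdc115, an assembly factor of the pump, averaged 48.4 CPM in Anaef and 29.95 CPM in WT total RNA (log2 0.69, SE 0.17, adjusted p = 0.46), and DESeq2 called it at 0.0178. In RPF Scarb2, the receptor that carries beta-glucocerebrosidase to lysosomes, averaged 45.4 CPM in Anaef and 70.7 CPM in WT (log2 -0.64, SE 0.17, adjusted p = 0.34). Prcp, a lysosomal carboxypeptidase, averaged 14.8 CPM in Anaef and 26.4 CPM in WT RPF (log2 -0.83, SE 0.25, adjusted p = 0.34), and 16.6 CPM in Anaef and 30.1 CPM in WT total RNA. For Prcp the log2 fold change in total RNA was -0.86 (SE 0.33, adjusted p = 0.84). In RPF the median log2 fold change of the 34 other hydrolases tested was -0.14 with 11 above 0, that of the 19 other membrane proteins -0.24 with 4 above 0, and that of the 9 sorting genes -0.13 with 4 above 0. The median of the 7 other pump genes tested was 0.19 with 5 above 0, and that of the 5 regulators -0.08 with 1 above 0.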

How the data were processed

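Total RNA and RPF were measured in CD4+ T cells, with 4 total RNA libraries and 2 RPF pools a genotype. The deposited table holds unnormalized read counts, and per the file headers the authors masked the RPF counts only. Alignment tool and build were TopHat 1.4.1 and GRCm38, per the submitters' processing notes. Not given in the sources used here are what the mask covered, how reads were counted and whether strand was used. Of 45669 rows, 263 joined several identifiers, 44509 were matched to GENCODE M21 and 897 were not.

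Tests used edgeR 4.0.16 under R 4.3.3 (quasi-likelihood F test, TMM scaling, filterByExpr, Benjamini-Hochberg adjustment over all rows tested, threshold 0.05). The SE was the size of the log2 fold change over the square root of F. All 35 members passed the filter in each comparison. Total RNA was fitted on 8 libraries, RPF on 4, their interaction on 12, and RPF over total RNA on the 6 libraries of a genotype. CPM were scaled by TMM within each assay, so CPM printed side by side for RPF and total RNA are not to be divided. The log2 ratios of RPF to total RNA come from fits that scaled both assays together, and can differ from such a quotient even in sign. Lamp1 in WT averaged 83.1 CPM in RPF and 65.3 CPM in total RNA, yet its log2 ratio was -0.37. Alternatives were DESeq2 1.42.0, RLE scaling, no filter, a mean of at least 50 counts, leaving out mitochondrial, immunoglobulin and T cell receptor genes, a single fit on 12 libraries, removal of a coding length trend, and leaving out each library. The fits were tested on simulated data. A simulated log2 change of 1 was called in 7% of changed rows in total RNA and 26% in RPF between genotypes. For RPF over total RNA in WT it was called in 3%. For a log2 change of 2 these shares were 51%, 91% and 48%. A missing call therefore does not show that a gene is unchanged. In WT the simulation changed only 100 rows by each size among 17296, whereas the real comparison of RPF with total RNA called 13157 of 17775 rows. With so many calls the adjusted threshold is less strict, so the 3% and 48% do not give the sensitivity of that comparison.

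Values in every library are given for the 3 members of each class highest per length in WT total RNA, up to 10 members called per comparison, the 3 smallest p-values and the extreme ratios of RPF to total RNA in WT. The members and lists were chosen with earlier results of these data known.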

Additional observations from a re-analysis of the deposited data

Results flagged for a closer look

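In total RNA each gene was screened in each genotype for a library far from the other 3, in 70 groups of 4 libraries, and 5 were found, where chance alone flags about 1 in 20 groups. Of these, 3 concern Anaef replicate 5, which had 61.6 CPM of Ctsb, against 33.1 to 36.9 CPM in the other Anaef libraries, 29.1 CPM of Ctsc, against 17.4 to 19.3 CPM, and 84.3 CPM of Lamp1, against 62.8 to 66.0 CPM. Npc2 stood low in Anaef replicate 6 at 49.9 CPM, against 93.5 to 101 CPM in the other Anaef libraries. Psap stood high in WT replicate 3 at 81.1 CPM, against 60.0 to 63.1 CPM in the other WT libraries.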

How the results depend on the processing

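No paired analysis was possible because the labels do not say which samples went into which RPF pool and the genotypes share no replicate numbers. Leaving out an RPF pool leaves a lone pool, which is assumed to vary like the other groups in the fit, namely the pools of the other genotype in RPF and the total RNA libraries of the same genotype in RPF over total RNA. Rows called between genotypes in total RNA numbered 4, 120 with DESeq2, 0 without mitochondrial, immunoglobulin and T cell receptor genes, and 0 to 3 with each library left out. DESeq2 called 2 lysosomal genes outside the members there, Laptm4b and Ccdc115. In RPF the 0 rows became 197 with DESeq2, 514 without a filter, 6 without mitochondrial, immunoglobulin and T cell receptor genes, and 0 to 211 with each pool left out, the last without Anaef pool 3B. DESeq2 and the fit without a filter each called 1 member, Ctsz (-0.86, adjusted p = 0.024, and -0.88, adjusted p = 0.00594), and without a filter 1 other lysosomal gene, Prcp, was called. No member was called between genotypes under the other settings. For RPF relative to total RNA, DESeq2 called 10 rows and leave-one-out fits 0 to 1. DESeq2 moved the median of all rows there to 0.32.

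For RPF over total RNA in WT, 22 to 24 of the 24 member calls held in each setting. In Anaef 21 or 22 of 22 held, except 17 without pool 3B and 17 without pool 4B. With libraries left out, lysosomal genes outside the members called higher ran from 13 to 27 in WT (26 with all libraries) and from 8 to 17 in Anaef (16 with all), and rows called higher in Anaef from 1942 to 3052 (2953 with all). After removal of the coding length trend, Npc2 in Anaef turned from 0.98 to -0.29, and the cause was not tested. The Anaef medians went from 0.52 to 0.31 for V-ATPase genes and from 0.15 to -0.12 for other lysosomal proteins. For hydrolases the Anaef median was 1.05 before and 1.08 after. In WT the medians after removal were 1.26 for hydrolases, 0.17 for other lysosomal proteins and 0.63 for V-ATPase genes. Before removal these WT medians were 1.26, 0.16 and 0.61. The log2 ratio of hydrolases to V-ATPase genes moved, per kilobase, to -0.33 for Anaef minus WT in RPF, to -1.56 for RPF minus total RNA in Anaef and to -1.30 in WT. Without Ctsd and Atp6v1a the RPF minus total RNA values became 0.34 in Anaef and 0.46 in WT. Depth limits the RPF values of Gusb, Gla, Atp6v0a1, Atp6v0a2 and Atp6v0b, which had under 100 counts in each pool.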
